A study of Mus musculus with 4 samples.

Results

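Lymphatic endothelial cells (LECs) without detected Lyve1 were examined in scRNA-Seq libraries of the regenerating mouse digit tip. A cell was taken as a LEC when it held at least 1 unique molecular identifier (UMI, the tag that marks a single captured transcript) of 3 or more of the 4 genes Prox1, Mmrn1, Reln and Flt4, and as Lyve1-negative when it held 0 Lyve1 UMIs. This gave 251 Lyve1-negative LECs among 93602 kept cells, 72 from the SAR131675 library, 57 from the control diet library, 66 from the lymph node removal (LNR) library and 56 from the sham library. The 604 LECs that passed the same marker rule and held Lyve1, called Lyve1-positive here, served as the main comparison. The 5 genes of the rule were used to choose these cells, so that their levels are given only as a description.

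Lymphatic vessels begin as blind-ended capillaries, which take up fluid and cells, and continue as collecting vessels, which carry lymph onward and hold valves. LYVE1, a receptor for hyaluronan, is known to mark capillary LECs and to be low or absent in collecting vessels and valves. Capillary LECs are also known for secreting CCL21, a chemokine that guides dendritic cells and T cells, whereas FOXC2, GATA2 and Claudin-11 are known from valve and collecting LECs.

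All 4 libraries came from P3 digits (the digit tip with the terminal phalanx) of female C57BL/6 mice (C57BL/6J in the study's methods) aged 6 to 8 weeks, with the hind limb digits of 10 mice pooled in each and digested with collagenase and dispase. In 1 experiment, mice ate chow with SAR131675, an inhibitor of the lymphatic receptor VEGFR3, at 30 mg/kg, or control chow, which the labels call no treatment. The labels give 8 days of SAR131675 diet, and the study's methods start it 5 days before amputation. In the other, the inguinal and popliteal lymph nodes of 1 limb were removed and the contralateral limb served as sham, so that these libraries may share mice, and the labels give the sham library as a control with no treatment. By the study's text the digit tips were amputated and digit tissue was profiled at 8 days post-amputation, but a figure legend places the SAR131675 samples at 5 days, and neither time matches the diet's length and start, so that the time of sampling is uncertain. Each condition has 1 library and the labels give every library its own batch number, so that batch and treatment cannot be told apart.

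The libraries held 168507188 to 585284877 UMIs, and the median kept cell had 5725 to 11316 UMIs, with the diet pair deeper than the surgery pair. The file headers name Cell Ranger 8.0.1 for the diet pair and 6.1.2 for the surgery pair. Some genes, such as Foxp2 and Piezo2, stood higher in both LEC classes of the diet pair. Levels were therefore compared between cell classes of the same library or between the libraries of a pair. Between 133 and 353 barcodes of a library also occurred in another library, none of them in a Lyve1-negative LEC.

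Lyve1-negative LECs were not shallower than the LECs that held Lyve1. Their median UMI number was 5664 in SAR131675, 6979 in control diet, 5950 in LNR and 6643 in sham, against 5388, 5660, 4652 and 4992 in Lyve1-positive LECs. Every library had a higher median in the Lyve1-negative cells. The marker rule drops shallow cells, more so where marker levels are low, so that this comparison cannot show whether Lyve1 was missed. At the Lyve1 level of the Lyve1-positive LECs of each library, 21 of the 251 would be expected to hold under 3 Lyve1 UMIs. That level is a mean over cells chosen for holding Lyve1, so that it cannot show how many cells with low Lyve1 were missed. As a background level, 2.32% to 3.48% of keratin-rich cells held a Lyve1 UMI, at median depths of 8402 to 12371 UMIs, and whether these came from free RNA or from doublets was not tested.

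Just outside the rule were 63 LECs with 1 Lyve1 UMI and 37 with 2 Lyve1 UMIs. Among the Lyve1-negative LECs, 143 of 251 held all 4 markers. Flt4, which encodes VEGFR3, was the missing marker in 47 cells, Reln in 31, Prox1 in 20 and Mmrn1 in 10. Of the Lyve1-positive LECs, 469 of 604 held all 4. Prox1, the transcription factor that sets lymphatic fate, was at 1240 CPM (the UMIs of a gene in a class and library, scaled to the same total for each) in Lyve1-negative LECs of SAR131675, 1032 in control diet, 484 in LNR and 531 in sham. In Lyve1-positive LECs it was at 1086, 927, 506 and 496 CPM, so that the classes overlapped and no class was higher throughout. Mmrn1, which encodes multimerin-1, ranged from 1028 to 1259 CPM in Lyve1-negative and from 2301 to 2629 CPM in Lyve1-positive LECs. For Flt4, the ranges were 253 to 316 CPM and 552 to 707 CPM. Reln, which encodes the secreted protein reelin, was lower in the Lyve1-negative cells of each library, at 257 CPM in LNR to 694 CPM in control diet against 762 CPM in sham to 1635 CPM in control diet.

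Markers that the rule did not use were checked. Pecam1 or Cdh5, which encode junction proteins of all endothelium, was detected in 234 of the 251 cells, and both in 176. Ccl21a or Pdpn, the gene of podoplanin, was detected in 203 cells. Pdpn was at 103 to 179 CPM in Lyve1-negative LECs, against 0.929 to 6.15 CPM in blood endothelial cells, defined as cells with UMIs of both Pecam1 and Cdh5 and 0 UMIs of the 5 rule genes. Transcripts of other cells were present too. The summed level of the keratinocyte list was 5321 to 6396 CPM in Lyve1-negative LECs and 3192 to 7273 CPM in Lyve1-positive LECs, and 69 of 251 cells held at least 2 Krt5 or Krt14 UMIs. The leukocyte gene Ptprc was found in 7 cells and Col1a1 or Col1a2 in 43. Scrublet, a doublet caller, marked 9 Lyve1-negative LECs of SAR131675, 0 of control diet, 5 of LNR and 7 of sham, and these were left in.

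To ask how Lyve1-negative LECs differed from Lyve1-positive LECs of the same digits, UMIs were summed per class and library and fitted with edgeR's quasi-likelihood test, with the library as a block and n = 4 libraries in each class. The p-values measure the spread between these 4 pools of different treatments. LNR and sham may share mice, so that the 4 pools may not be independent. Of 8094 genes tested, 257 were higher in Lyve1-negative LECs, 3.18% of those tested, and 236 were lower, 2.92% of those tested (Benjamini-Hochberg adjusted p below 0.05). Among the 493 genes called, 480 had the same direction in all 4 libraries, which such a call largely requires and is no separate support. The median log2 fold change over all genes tested was -0.0014. Genes that rose included the growth factor gene Hgf, the peptide hormone gene Adm, the prostaglandin transporter gene Slco2a1 and the valve gene Foxp2, and genes that fell included Ccl21a, the chemokine scavenger gene Ackr2 and the mechanosensitive channel gene Piezo2.

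Hgf (ENSMUSG00000028864), which encodes hepatocyte growth factor, the ligand of MET, had the largest rise among the called genes with 1 direction in all 4 libraries. It was at 72.5 CPM in Lyve1-negative LECs of SAR131675, 65.4 in control diet, 26.2 in LNR and 22.9 in sham, against 8.77, 7.98, 4.56 and 4.41 CPM in Lyve1-positive LECs. The classes did not overlap, and the diet pair stood above the surgery pair in both. The rise was 7.21-fold (log2 2.85, SE 0.28, edgeR adjusted p = 9.6e-05), from 92 UMIs in Lyve1-negative and 29 in Lyve1-positive LECs. Hgf was found in 14 Lyve1-negative LECs of SAR131675, 9 of control diet, 7 of LNR and 9 of sham. A single cell held 30%, 40%, 25% and 20% of its UMIs in these libraries.

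Adm (ENSMUSG00000030790) encodes adrenomedullin, a peptide known to act on lymphatic growth and barrier. It was at 218 CPM in SAR131675, 188 in control diet, 247 in LNR and 117 in sham, against 12.3, 23.9, 66.1 and 39.7 CPM. The lowest Lyve1-negative value, in sham, was above the highest Lyve1-positive value, in LNR, and the rise was 5.90-fold (log2 2.56, SE 0.30, edgeR adjusted p = 0.00032). Slco2a1 (ENSMUSG00000032548) showed the narrowest range of these genes, with 129, 129, 172 and 139.7 CPM in Lyve1-negative LECs in the same order. In Lyve1-positive LECs it was at 28.9, 27.6, 21.7 and 28.7 CPM, which gave a 5.28-fold rise (SE 0.17 on the log2 scale, edgeR adjusted p = 8.8e-06). At 2000 UMIs in every cell, Slco2a1 was found in 25.5% of 153 Lyve1-negative and 3.94% of 381 Lyve1-positive LECs, as classed after thinning.

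Plvap, which encodes the protein of the diaphragms in fenestrae and caveolae and is best known from blood vessels, was at 123 CPM in SAR131675, 161 in control diet, 367 in LNR and 329.7 in sham. The Lyve1-positive LECs had 61.4, 31.9, 59.3 and 43.0 CPM, all below the lowest Lyve1-negative value, a 4.75-fold rise (log2 2.25, SE 0.25, edgeR adjusted p = 0.00025). Angptl4, whose product inhibits lipoprotein lipase, rose 5.99-fold (SE 0.48 on the log2 scale, edgeR adjusted p = 0.0066) from low levels, with 54 UMIs in Lyve1-negative LECs. Ccdc3, a gene for a secreted protein, rose 4.37-fold, the fin bud factor homolog Fibin 4.97-fold, the membrane protein gene Tm6sf1 4.96-fold and the kinesin gene Kif26b 4.45-fold. Tagln, an actin-binding gene of smooth muscle, rose 5.08-fold (edgeR adjusted p = 0.00063), but came from 18 Lyve1-negative LECs, and 1 cell held 84.4% of its UMIs in LNR. With barcodes that held mural cell markers left out, an alternative chosen after the data were seen, Tagln fell below the filter on low counts and was not tested.

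The largest falls were of genes that were near 0 in Lyve1-negative LECs. Npy, which encodes neuropeptide Y, had 1 UMI in the 251 Lyve1-negative and 126 UMIs in the 604 Lyve1-positive LECs, a 55.8-fold lower pooled level with a counting interval of 9.83 to 2220-fold. Ackr2 (ENSMUSG00000044534), whose product removes inflammatory CC chemokines, was at 10.9 CPM in SAR131675, 6.54 in control diet, 6.55 in LNR and 9.16 in sham, against 99.99, 115, 79.8 and 118 CPM. The ranges were far apart, and the fall was 11.9-fold (log2 -3.58, SE 0.23, edgeR adjusted p = 4.4e-06). Enpp3, an ectonucleotidase gene, fell 10.8-fold, from 70.6 to 113 CPM in Lyve1-positive LECs to 6.54 to 9.16 CPM. The organic anion transporter gene Slco2b1 fell 7.91-fold and the hyaluronan-binding protein gene Itih5 5.90-fold.

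Piezo2 (ENSMUSG00000041482), a channel opened by membrane stretch, was at 152 CPM in SAR131675, 153 in control diet, 19.6 in LNR and 18.3 in sham. In Lyve1-positive LECs it was at 907, 819, 137 and 137 CPM. It was lower in the Lyve1-negative cells of each library, by 5.96-fold (log2 -2.58, SE 0.12, edgeR adjusted p = 7.3e-07), although the diet pair stood above the surgery pair in both classes and the ranges over all libraries overlapped. The matrix receptor gene Antxr2 fell 7.30-fold, the adaptor protein gene Apba2 5.52-fold and the actin-binding gene Ablim3 5.32-fold. F13a1, the gene of coagulation factor XIII A that macrophages also express, fell 10.5-fold. Its UMIs in Lyve1-positive LECs came from 3 of 160 cells in SAR131675, 7 of 185 in control diet, 7 of 121 in LNR and 13 of 138 in sham. With barcodes that held macrophage markers left out, F13a1 fell below the filter on low counts and was not tested.

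**Figure D1:**
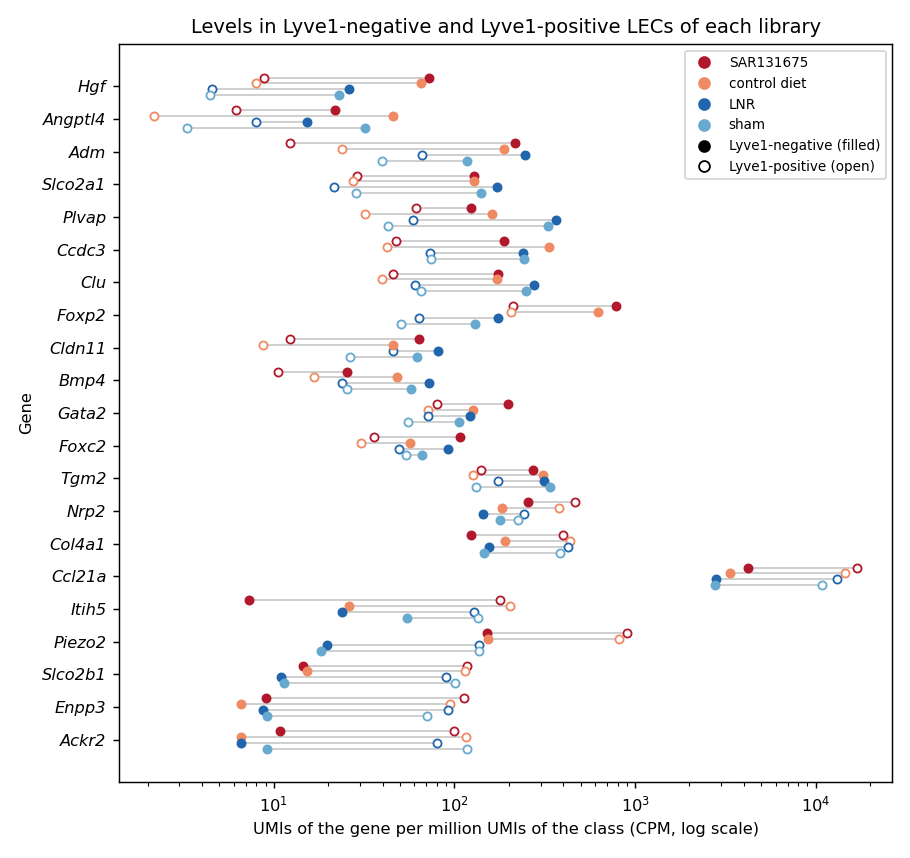
Levels of 21 genes in CPM (log scale) in Lyve1-negative LECs (filled circles) and Lyve1-positive LECs (open circles), joined by a line for each of the 4 libraries. For Hgf, Adm and Slco2a1 every filled circle lies to the right of every open circle, and for Ccl21a, Enpp3 and Ackr2 every filled circle lies to the left.

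Ccl21a (ENSMUSG00000094686) was at 4193 CPM in Lyve1-negative LECs of SAR131675, 3344 in control diet, 2795 in LNR and 2762 in sham, against 16983, 14505, 13101 and 10814 CPM in Lyve1-positive LECs. All 4 Lyve1-negative values lay below all Lyve1-positive values (log2 -2.07, SE 0.04, edgeR adjusted p = 9.4e-11), yet they were far above the 1.16 to 4.54 CPM of blood endothelial cells. A Ccl21a UMI was detected in 63.9% to 78.6% of Lyve1-negative LECs and in 0.713% to 2.00% of blood endothelial cells, at median depths of 5664 to 6979 and 4716 to 9123 UMIs. The files' symbol cannot be told from near-identical copies of the Ccl21 genes.

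The list of collecting vessel and valve genes had 24 of its 26 members tested, of which 7 rose and 1 fell, against 3.18% and 2.92% of all genes tested. Its median log2 fold change was 0.26, against -0.0014 over all genes. This list, like the other gene lists, was chosen with earlier results of these data known, so that its counts are no independent support. Foxp2, a transcription factor gene of collecting LECs, was at 789 CPM in SAR131675, 619 in control diet, 175 in LNR and 131 in sham, against 209.6, 207, 63.8 and 50.7 CPM. It was higher in the Lyve1-negative cells of each library (log2 1.63, SE 0.12, edgeR adjusted p = 8.8e-06). The diet pair stood above the surgery pair in both classes, as for Piezo2. Cldn11, the gene of the tight junction protein Claudin-11, was at 63.5, 45.8, 80.7 and 61.8 CPM against 12.3, 8.70, 45.6 and 26.5 CPM in the order given (log2 1.58, SE 0.28, edgeR adjusted p = 0.0046). The lowest Lyve1-negative value was just above the highest Lyve1-positive value.

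Among the other valve genes, Gata2, a transcription factor gene, was at 198, 127, 122 and 105 CPM against 79.8, 71.8, 71.8 and 55.1 CPM (log2 0.99, SE 0.14, edgeR adjusted p = 0.0012). Foxc2, which encodes the forkhead factor of valve formation, was at 107, 56.7, 91.6 and 66.4 CPM against 36.0, 30.5, 49.0 and 54.0 CPM. Neither gene overlapped between the classes, and Foxc2 had a log2 fold change of 0.96 (SE 0.20, edgeR adjusted p = 0.015). Without the SAR131675 library its adjusted p was 0.094 in the edgeR fit. The growth factor gene Bmp4 rose with a log2 fold change of 1.41, the Tie2 ligand gene Angpt2 with 0.71 and the ephrin gene Efnb2 with 0.56, and Angpt2 had an edgeR adjusted p of 0.065 without the SAR131675 library. The member that fell was Adgrg3, an adhesion receptor gene, with a log2 fold change of -1.41. Other valve genes gave no call, with log2 fold changes of 0.07 for Itga9, which encodes a fibronectin-binding integrin, -0.10 for the connexin gene Gja1 and 0.59 for the connexin gene Gja4, which was higher in all 4 libraries (edgeR adjusted p = 0.11).

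All 10 members of the capillary list were tested, of which 5 fell and 1 rose, with a median log2 fold change of -0.36, against 2.92% and 3.18% of all genes tested that fell and rose. Besides Ackr2 and Ccl21a, these were Nrp2, a co-receptor gene of VEGFR3, with a log2 fold change of -0.75 (edgeR adjusted p = 0.0037), the guidance cue gene Ntn1 with -0.53 (edgeR adjusted p = 0.0087) and Pdpn with -0.53 (edgeR adjusted p = 0.021). The call of Ntn1 was lost without sham (edgeR adjusted p = 0.058), and that of Pdpn without SAR131675, LNR or sham (edgeR adjusted p = 0.069, 0.098 and 0.15). Tgm2, a transglutaminase gene, went the other way, at 274, 308, 312 and 339 CPM in Lyve1-negative against 139, 127, 174 and 131 CPM in Lyve1-positive LECs, with no overlap (log2 1.13, SE 0.12, edgeR adjusted p = 0.00015). The scavenger receptor gene Stab1 (log2 -0.19) and the semaphorin gene Sema3d (log2 0.11) gave no call. The collecting vessel genes that changed mostly rose and the capillary genes that changed mostly fell, while 16 and 4 members of these lists gave no call. Neither list was chosen independently of these data, as stated above.

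**Figure D2:**
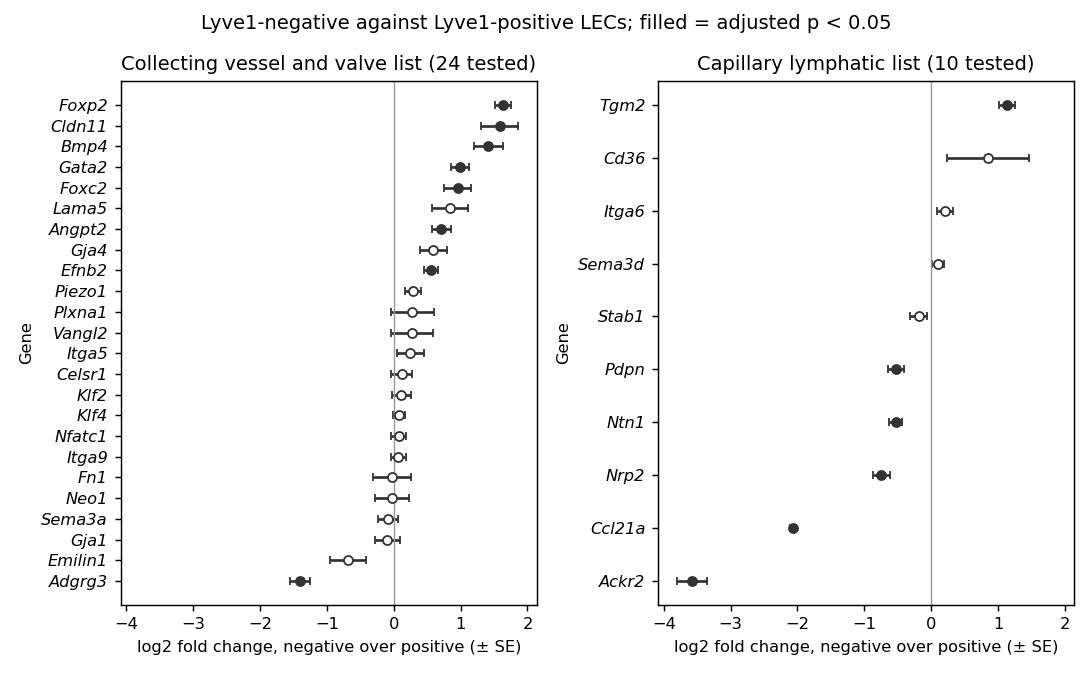
Log2 fold change of Lyve1-negative over Lyve1-positive LECs, with SE, for the 24 tested genes of the collecting vessel and valve list and the 10 tested genes of the capillary list. Filled circles passed the edgeR test at an adjusted p below 0.05. Foxp2 (1.63) and Cldn11 (1.58) lead the first list, and Ackr2 (-3.58) and Ccl21a (-2.07) lie lowest in the second.

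Of the lymphatic identity genes outside the rule, 9 were tested, 6 fell and 1 rose, with a median log2 fold change of -0.53, against 2.92% and 3.18% of all genes tested that fell and rose. The nuclear receptor gene Nr2f2, which acts with PROX1, fell from 615 to 951 CPM in Lyve1-positive LECs to 375 to 726 CPM in Lyve1-negative LECs (log2 -0.53, edgeR adjusted p = 0.0034), and the transcription factor gene Sox18 had a log2 fold change of -0.59. Nts, which encodes neurotensin, rose (log2 0.55, SE 0.14, edgeR adjusted p = 0.034) from 159.5 to 297 CPM to 314 to 449.8 CPM. A single Lyve1-negative cell held 39.5% of its UMIs in control diet, 35.5% in LNR and 35.8% in sham, against 10.1% in SAR131675. Of the lymphatic score list that the study applied to these data, which is not independent evidence, 25 of 30 genes were tested, with 4 higher and 8 lower and a median of -0.20. The genes that rose were Clu, Lbp, Nts and Fxyd6. Clu, the gene of the secreted chaperone clusterin, was at 174, 172, 275 and 249.6 CPM against 45.6, 39.9, 60.4 and 65.1 CPM (log2 2.06, SE 0.12, edgeR adjusted p = 4.4e-06), with no overlap.

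In the receptor families that act on these vessels, 7 genes of VEGF receptors and co-factors were tested and Nrp2 was the 1 called. The counts of this and the next lists stand beside 3.18% of all genes tested that rose and 2.92% that fell. Kdr, the gene of VEGFR2, had a log2 fold change of 0.32 (edgeR adjusted p = 0.084) and was higher in the Lyve1-negative cells of all 4 libraries. The angiopoietin receptor gene Tek rose with Angpt2 and Angptl4, 3 of the 5 genes tested in that list, with a log2 fold change of 0.61 for Tek. Of the 9 Notch genes and the 9 cell division genes tested, 0 were called by edgeR, and 2 junction genes, Cldn11 and the paracingulin gene Cgnl1, rose among 11.

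Of 19 matrix genes of the vessel wall that were tested, 6 fell in Lyve1-negative LECs, 1 rose and 12 did not pass the test, with a median log2 fold change of -0.44 and 2.92% of all genes tested falling. Col4a1, which encodes a basement membrane collagen chain, was at 123, 189.8, 155 and 147 CPM against 401, 438, 426 and 382 CPM, with no overlap (log2 -1.42, SE 0.11, edgeR adjusted p = 2.3e-05). Col18a1, the source of endostatin, fell with a log2 fold change of -1.24, Col4a2 with -1.06, the elastin gene Eln with -0.84, the protease inhibitor gene Timp3 with -0.56 and the laminin gene Lama4 with -0.48. Mmrn2, the gene of an endothelial matrix protein, rose with a log2 fold change of 1.19.

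Of the chemokine list, Ackr3, which encodes a scavenger of CXCL12 and adrenomedullin, fell in addition to Ackr2 and Ccl21a (log2 -1.06, edgeR adjusted p = 9.7e-05), 3 of 6 tested, where 2.92% of all genes tested fell and 3.18% rose. The adhesion molecule gene Icam1 rose, with a log2 fold change of 0.66. Of the secreted factors that act on bone, 8 of 15 were tested. Pdgfb (log2 2.08) and Bmp4 rose, and the Wnt agonist gene Rspo3 (log2 -2.05) and Tgfb1 (log2 -0.54) fell. Pdgfb had 71 UMIs over the Lyve1-negative LECs, at 19.9, 54.5, 50.2 and 27.5 CPM against 8.77, 9.43, 7.98 and 8.82 CPM. Of 17 genes shared by all endothelium, Emcn, Tek and Egfl7 rose and Sox18 fell. Among guidance cues, Efnb2 rose and Ntn1 and Sema6a fell of 14 tested, and of 16 immediate early genes Ier3 rose.

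Markers of other cells differed as well. Of the macrophage list, 5 genes were tested and F13a1, Mrc1 and Lyz2 fell, where 2.92% of all genes tested fell. The summed level of its 14 genes was 28.4 to 295 CPM in Lyve1-negative and 152 to 711 CPM in Lyve1-positive LECs, and LYVE1 is itself known from tissue macrophages. Barcodes with macrophage markers made up 0% to 8.93% of Lyve1-negative and 0.541% to 4.13% of Lyve1-positive LECs. Without them, an alternative chosen after the data were seen, 500 genes were called. Of the fibroblast list, Dcn and Pi16 fell among 8 tested, beside the same share over all genes. The summed mural list was at 103 to 807 CPM in Lyve1-negative and 67.5 to 289 CPM in Lyve1-positive LECs. In Lyve1-negative LECs the blood endothelial list summed to 840 CPM in SAR131675, 1169 in control diet, 1606 in LNR and 1944 in sham. In Lyve1-positive LECs it summed to 912, 996, 972 and 1095 CPM. Plvap and Emcn rose and Rgcc fell among its 10 tested genes, beside 3.18% of all genes tested that rose and 2.92% that fell. Without barcodes of at least 2 UMIs of Ptprc, Krt14, Krt5, Col1a1 and Col1a2, 494 genes were called, and Ackr2 had a log2 fold change of -3.77 and Plvap of 2.08. The part of these other cells in the remaining calls was not tested.

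Some genes were graded by the number of Lyve1 UMIs among LECs, as a description of cells that share libraries, with genes chosen after their values were seen. Ccl21a averaged 3273 CPM over the libraries in the 251 LECs with 0 Lyve1 UMIs, 6161 CPM in the 100 with 1 to 2, 10207 CPM in the 188 with 3 to 9 and 17308 CPM in the 316 with 10 or more. Ackr2 averaged 8.28, 34.7, 56.9 and 142 CPM in the same order. Plvap went the other way, with 245, 124, 49.2 and 29.6 CPM, as did Foxp2 with 428, 228, 128 and 117 CPM. The cells with 1 to 2 Lyve1 UMIs lay between those with 0 and those with 3 or more for each of these 4 genes, at median depths of 6150, 4303, 3813 and 6045 UMIs for the 4 groups. Adm was at 192, 50.1, 37.3 and 31.8 CPM in the same order. Other genes were not graded in this way. Hgf was at 46.8, 9.53, 0 and 8.37 CPM, and Cldn11 at 63.0, 23.5, 27 and 21.7 CPM, both highest in the cells without Lyve1 and without an order among the rest.

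**Figure D3:**
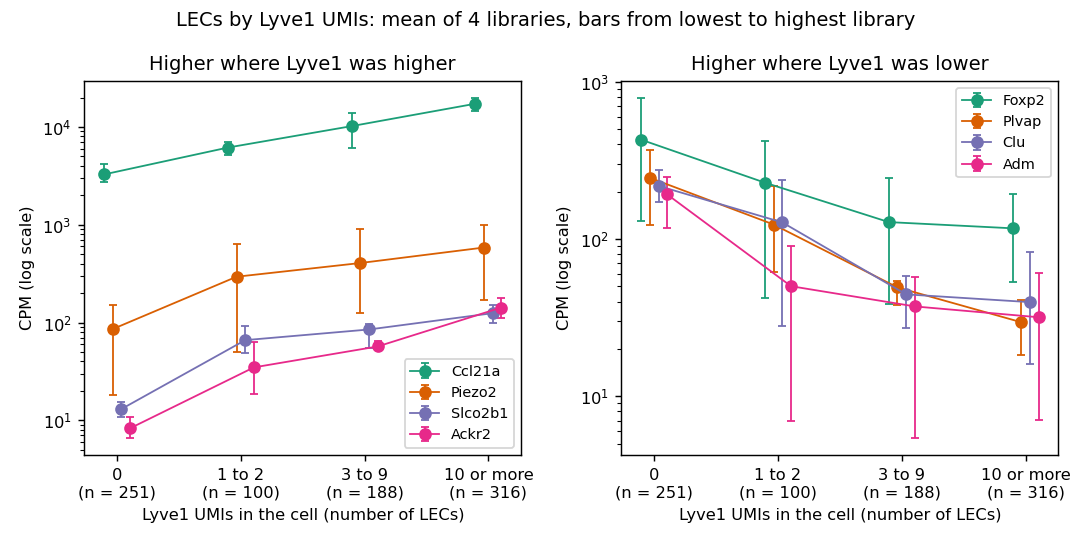
Mean CPM (log scale) of 8 genes over the 4 libraries in LECs grouped by their Lyve1 UMIs, with bars from the lowest to the highest library. Ccl21a, Piezo2, Slco2b1 and Ackr2 climb from left to right, from 8.28 to 142 CPM for Ackr2, and Foxp2, Plvap, Clu and Adm decline.

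Lyve1-negative LECs also varied among themselves. Foxc2 or Cldn11 was detected in 107 of the 251 cells and both in 32, and Ccl21a was absent from 79. The 53 cells with a Cldn11 UMI had a median depth of 8075 UMIs, and the 198 without it 5359. Adm was at 697 CPM in the Cldn11-positive cells of SAR131675, 484 in control diet, 519 in LNR and 380 in sham, against 87.6, 87.5, 80.7 and 30.4 CPM in the cells without Cldn11. These values did not overlap. Foxc2 was detected in 60.4% of cells with and 27.3% of cells without Cldn11, and Clu in 81.1% and 41.4%.

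Slco2a1 followed another pattern. In the cells with Cldn11, Slco2a1 was at 51.0, 43.3, 149.9 and 64.9 CPM in the 4 libraries, against 149.9, 158, 186 and 164 CPM in those without, lower in each library. In the 115 cells with a Plvap UMI, Slco2a1 ranged from 173 to 256 CPM, and in the 136 cells without Plvap from 35.3 to 95.4 CPM. The cells with Plvap were deeper, at a median of 7755 against 4573 UMIs, and Vwf, a marker gene of blood endothelium, was at 16.9, 34.5, 61.1 and 57.1 CPM in them, found in 25 cells, against 3.18, 4.42, 5.09 and 0 CPM in those without Plvap, found in 3 cells. The part of depth and of Vwf-positive barcodes in this split was not tested. Plvap in the cells with Cldn11 was at 76.5, 86.5, 375 and 167 CPM, against 136, 187, 361 and 383 CPM in those without, lower in each library but LNR. With and without an Adm UMI, Slco2a1 was detected in 32.1% and 44.1%, although the Adm-positive cells were deeper, at a median of 8626 against 5209 UMIs.

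The 79 cells without Ccl21a held Hgf at 135 CPM in SAR131675, 214 in control diet, 66.7 in LNR and 78.3 in sham, against 37.0, 9.03, 11.8 and 11.1 CPM in the 172 cells with Ccl21a. Every value without Ccl21a was above every value with it. Hgf was detected in 30.4% and 8.72% of these cells. Ackr2 was detected in 0 of the 79 cells, which allows a share of cells with a UMI of up to 3.80%, and in 14 of the 172. Foxp2 was found in 69.6% of the cells without and 65.1% of those with Ccl21a. Cells without Ccl21a numbered 26 of 72 in SAR131675, 19 of 57 in control diet, 22 of 66 in LNR and 12 of 56 in sham.

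Blood endothelial cells of the same libraries served as a second comparison, of identity. Of 10969 genes tested, 864 were higher in Lyve1-negative LECs, 7.88% of those tested, and 1212 were lower, 11% of those tested (edgeR, adjusted p below 0.05). The blood endothelial class held mural markers in 17.8% to 39.2% of its barcodes, against 2.78% to 6.06% of Lyve1-negative LECs, and 9 of 9 mural genes tested, such as Rgs5, were lower in Lyve1-negative LECs. Of the blood endothelial list, 14 of 17 tested genes were lower in Lyve1-negative LECs and 0 were higher, with a median log2 fold change of -3.79 against 0.0050 over all genes. Vwf, the gene of von Willebrand factor, was at 9.07, 19.6, 37.1 and 41.2 CPM against 324, 340, 303 and 254 CPM (log2 -3.62, edgeR adjusted p = 4.9e-05). Plvap, although higher than in Lyve1-positive LECs, was at 1230 to 1444 CPM in blood endothelial cells, above every Lyve1-negative value.

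Besides Ccl21a, genes higher in Lyve1-negative LECs than in blood endothelial cells were Sh3gl3, which encodes an endophilin, with 382 against 4 UMIs, the Notch regulator gene Dtx1 with 418 against 5, Nts with 689 against 29, the transporter gene Slc45a3 with 235 against 10, the dual oxidase gene Duox2 with 139 against 7 and 1110032F04Rik with 33 against 1. Duoxa2, the maturation factor of dual oxidase 2, and the lectin receptor gene Klrb1f had 0 UMIs in the 2208 blood endothelial cells and were at least 195-fold and 167-fold higher, with 3 counts over the group as the floor and without the counting error of the Lyve1-negative LECs. Prox1os, at least 189-fold higher, lies antisense at the Prox1 locus, so that its reads may not be separable from those of a rule gene. Klrb1f was also scarce in Lyve1-positive LECs, with 9 UMIs in 604 cells against 55 in 251.

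The tip cell genes Esm1 and Apln had 0 UMIs in Lyve1-negative LECs. They were at least 29.7-fold and 14.6-fold lower than in blood endothelial cells, with the same floor and without the counting error of those cells. Lhx6 (at least 20.3-fold), Asb4 (11.5-fold), Gkn3 (11.2-fold), AU021092 (10.3-fold), 1810006J02Rik (9.89-fold), Akr1c14 (8.18-fold) and Dlk1 (7.70-fold) were absent as well. Of the collecting vessel and valve list, 11 of 24 genes were higher in Lyve1-negative LECs than in blood endothelial cells and 3 were lower, where 7.88% of all genes tested were higher and 11% lower, with a median log2 fold change of 0.54 against 0.0050 over all genes. Cldn11 was at 45.8 to 80.7 CPM against 0.232 to 1.45 CPM, and Foxc2 at 56.7 to 107 CPM against 2.88 to 3.25 CPM. The endomucin gene Emcn, a common vein and capillary marker, had a log2 fold change of -0.06 (edgeR adjusted p = 0.85) with a SE of 0.15.

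The 2 treatments were compared by the share and the levels of Lyve1-negative LECs, without a test across samples, since each condition has 1 library. Exact 95% intervals cover counting error only. In SAR131675, 72 of 29076 kept cells were Lyve1-negative LECs, 0.248% (Clopper-Pearson interval 0.194% to 0.312%), and in control diet 57 of 24030, 0.237% (0.180% to 0.307%). The log2 ratio of shares was 0.06 (-0.46 to 0.59), so that no difference could be detected with these counts. Lyve1-positive LECs made up 0.550% and 0.770%, with -0.48 as the log2 ratio (-0.80 to -0.17). This interval left out 0, and the intervals of the Lyve1-positive shares, 0.469% to 0.642% and 0.663% to 0.889%, did not overlap. With barcodes holding markers of other cell types removed, 103 of 160 Lyve1-positive LECs were left in SAR131675 and 132 of 185 in control diet. Kept cells fell from 29076 to 3743 and from 24030 to 4907, as these markers also take out whole other cell types. The lower share was not seen then, but the denominators are unlike, so that the results cannot be set side by side. The difference between the ratios of the 2 classes was not tested. The Lyve1-negative share of all LECs was 31.0% (25.1% to 37.4%) in SAR131675 and 23.6% (18.4% to 29.4%) in control diet.

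In LNR, 66 of 19827 cells, 0.333% (0.258% to 0.423%), and in sham 56 of 20669, 0.271% (0.205% to 0.352%), were Lyve1-negative LECs, a log2 ratio of 0.30 (-0.24 to 0.84). Lyve1-positive LECs had a ratio of -0.13 (-0.49 to 0.23). Of all LECs, 35.3% (28.5% to 42.6%) were Lyve1-negative in LNR and 28.9% (22.6% to 35.8%) in sham. The intervals overlapped in both pairs, and each interval of the 4 libraries overlapped with the others.

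**Figure D4:**
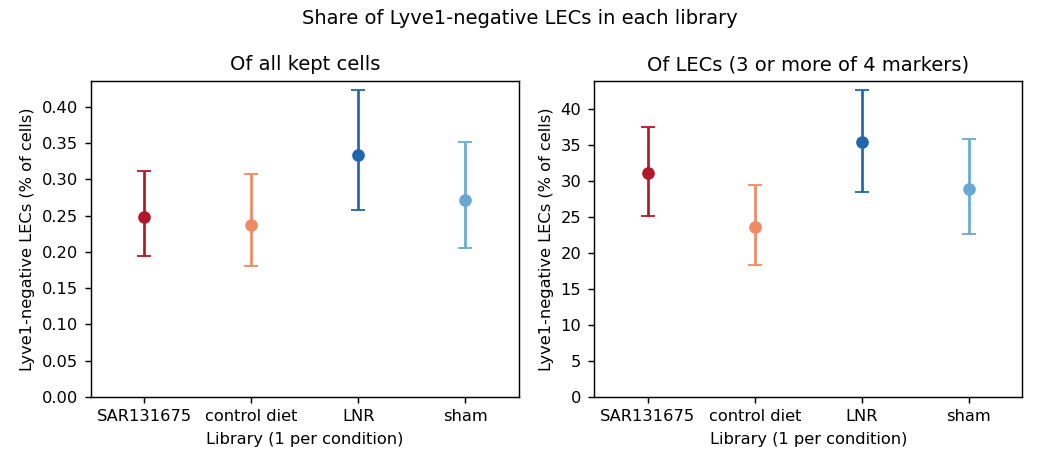
Share of Lyve1-negative LECs in each of the 4 libraries, as a percentage of all kept cells (left) and of LECs (right), with exact 95% binomial intervals that cover counting error only. The shares of kept cells lie between 0.237% and 0.333%, and the intervals of the 4 libraries overlap.

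Within Lyve1-negative LECs, 7264 genes had at least 20 UMIs in the diet pair. Of these, 297 were at least 2-fold higher in SAR131675, 4.09% of those compared, and 340 at least 2-fold lower, 4.68% of those compared. Of the lymphatic identity list, which holds genes of the rule and is given only as a description, 0 of 13 genes were past 2-fold. Of the collecting vessel and valve list, 1 of 21 was past 2-fold, the guidance receptor gene Neo1, and its median log2 ratio was 0.08 against 0.03 over all genes compared. The valve gene Foxc2 was at 107 against 56.7 CPM (log2 0.92, 0.23 to 1.64). Gata2 was at 198 against 127 CPM (log2 0.64, 0.17 to 1.13). Sema3a, a repulsive cue gene of valve formation, had a log2 ratio of 0.71 (0.37 to 1.05). These intervals left out 0, as did those of 1034 of all 7264 genes compared, in either direction. Of the same list, Foxp2 (0.35) and Itga9 (0.48) left out 0 too, whereas Angpt2 (-0.03), Efnb2 (-0.04), Fn1 (-0.06) and Gja4 (0.08) included it. In Lyve1-positive LECs, the ratios of Foxc2, Gata2 and Sema3a were 0.24 (-0.42 to 0.90), 0.15 (-0.27 to 0.58) and -0.18 (-0.38 to 0.02).

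Flt4, the gene of the receptor that SAR131675 inhibits, was at 267 CPM in SAR131675 and 253 CPM in control diet, a log2 ratio of 0.08 (-0.29 to 0.44), and Kdr was at 542 against 669.6 CPM (log2 -0.30, -0.54 to -0.07). As a rule gene, Flt4 is given as a description only. Reln, a rule gene too, was at 522 against 694 CPM. Ccl21a was at 4193 against 3344 CPM (log2 0.33, 0.23 to 0.42), with a ratio of 0.23 (0.20 to 0.26) in Lyve1-positive LECs. Pdgfb had 11 against 25 UMIs (log2 -1.45, -2.62 to -0.38), and Cxcl12, which encodes a chemokine that retains hematopoietic cells in bone marrow, had 5 against 26 UMIs, of which 1 control diet cell held 57.7%. In Lyve1-positive LECs, the ratios were 0.15 (-0.02 to 0.31) for Kdr, -0.10 (-1.45 to 1.20) for Pdgfb and -1.59 (-2.07 to -1.12) for Cxcl12. Pdgfb and Cxcl12 are also known from blood endothelium. Of the blood endothelial list, 3 of 7 genes compared (Flt1, Cxcl12 and Ly6c1) were past 2-fold lower in SAR131675 and 0 past 2-fold higher. Of all genes compared, 4.68% were past 2-fold lower and 4.09% higher. The median log2 ratio of the list was -0.39 against 0.03 over all genes compared, and its 18 genes summed to 840 against 1169 CPM. The part of blood endothelial RNA in these ratios was not tested.

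The largest ratios of the diet pair rested on few cells. The MHC class II genes Cd74 (130 against 1 UMIs), H2-Aa (119 against 4), H2-Ab1 (55 against 1) and H2-Eb1 (51 against 2) were highest in SAR131675, but 1 cell held 96.9% of the Cd74 UMIs. The volar keratin gene Krt9 had 125 UMIs, with 99.2% in 1 cell, and 0 in control diet. In the other direction, the late keratinocyte genes Flg (4 against 623 UMIs), Wfdc21 (4 against 350), Asprv1 (5 against 253), Slurp1 (3 against 152) and Lor (22 against 1020) were lowest, with 73.0% (Slurp1) to 92.9% (Flg) of the control diet UMIs of each gene in 1 cell. Lor was found in 15 control diet and 16 SAR131675 cells. In Lyve1-positive LECs, Cd74 had 423 against 6 UMIs and Flg 17 against 139, while Krt9 went the other way with 5 against 16. When the cell with most UMIs of each gene was left out of each library, 492 of 6478 genes compared were past 2-fold. Of these, 302 were higher and 190 lower, so that most of them were then higher, not lower.

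In the surgery pair, 5843 genes had at least 20 UMIs. Of these, 245 were at least 2-fold higher in LNR, 4.19% of those compared, and 195 at least 2-fold lower, 3.34% of those compared. The lymphatic identity list, again with the genes of the rule in it, had 0 of 13 past 2-fold, and the collecting vessel and valve list 1 of 21. The latter was Gja1, the connexin 43 gene, at 131 against 284 CPM (log2 -1.12, -1.59 to -0.66), found in 31 of 66 and 32 of 56 cells. A single cell held 23.4% of the Gja1 UMIs in sham and 13.3% in LNR. In Lyve1-positive LECs the ratio of Gja1 was 0.35 (0.07 to 0.63), with an interval apart from that in Lyve1-negative LECs. Both intervals cover counting error only, and the difference between the classes was not tested. Adm was at 247 against 117 CPM (log2 1.08, 0.59 to 1.58), from 28 of 66 and 16 of 56 cells, and had a ratio of 0.74 (0.11 to 1.38) in Lyve1-positive LECs. Angpt2 had a ratio of 0.73 (0.07 to 1.42). Intervals left out 0 for 594 of all 5843 genes compared in this pair. Ccl21a, at 2795 against 2762 CPM (log2 0.02, -0.10 to 0.13), had an interval that included 0. Flt4, a rule gene given as a description only, was at 314 against 316 CPM (log2 -0.01, -0.36 to 0.34).

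Here too the extremes rested on few cells. The neutrophil genes S100a8 (3 against 1053 UMIs), S100a9 (5 against 813), Ngp (0 against 150) and Camp (3 against 133) and the chemokine gene Ccl4 (1 against 115) were lowest in LNR, with 92.3% of the sham S100a8 UMIs in 1 cell. The lipid synthesis genes Fa2h (77 against 2), Far2 (70 against 2) and Elovl4 (432 against 25) and the serpin genes Serpina3j (83 against 2) and Serpina3b (121 against 7) were highest, and a single LNR cell held all Fa2h UMIs. In Lyve1-positive LECs, S100a8 had 6 against 1883 UMIs and Fa2h 28 against 3, while Ccl4 had 0 in both libraries. Genes of fibroblasts stood higher in LNR, with 4 of 7 past 2-fold, and 3 of 4 mural genes, where 4.19% of all genes compared were higher. The mural genes included Tagln, most of whose LNR UMIs were in 1 cell, as given above. The part of fibroblast and mural genes in the other ratios was not tested. Without the cell with most UMIs of each gene, 299 of 5015 genes compared were past 2-fold, 157 higher and 142 lower.

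**Figure D5:**
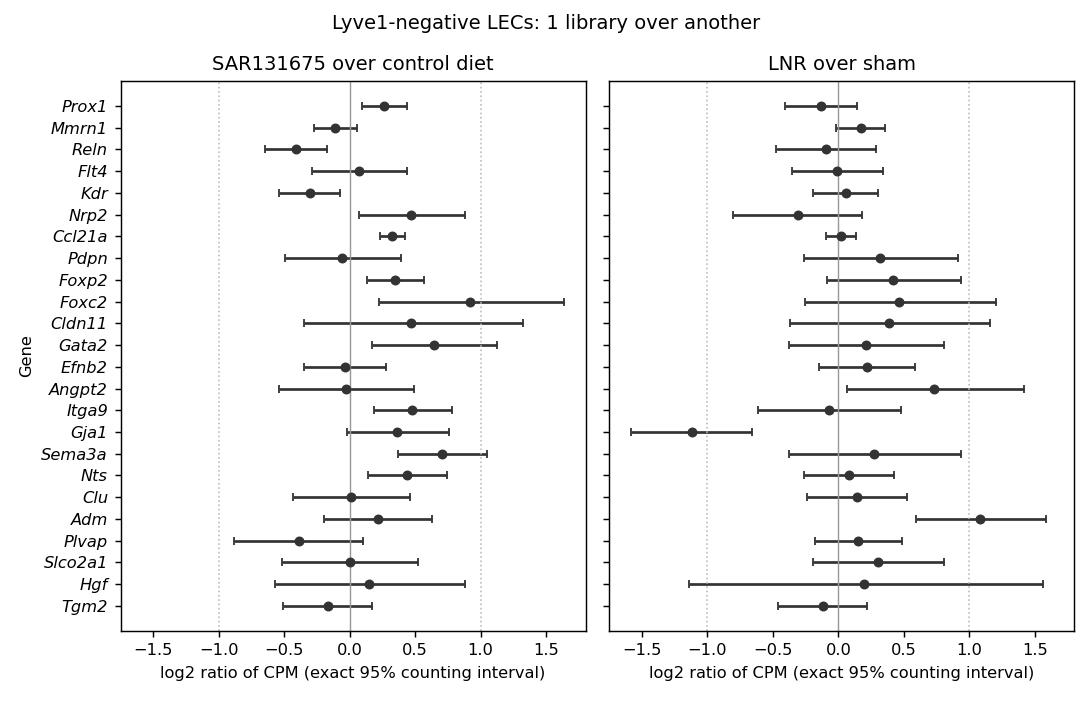
Log2 ratio of CPM in Lyve1-negative LECs for 24 lymphatic and vessel genes, SAR131675 over control diet (left) and LNR over sham (right), with exact 95% intervals that cover counting error only and dotted lines at 2-fold. Gja1 (-1.12) and Adm (1.08) in the surgery pair lie outside the dotted lines, and no gene shown does in the diet pair. Prox1, Mmrn1, Reln and Flt4 are genes of the rule and are shown as a description only.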

How the data were processed

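Digit tip scRNA-Seq was deposited as raw UMI counts per gene and barcode for 4 libraries (10x Genomics 3' chemistry), made by the authors with Cell Ranger. Per the file headers the version was 8.0.1 for the diet pair and 6.1.2 for the surgery pair, whereas the submitters' processing notes name 6.1.2 and GRCm39 for all. Later versions of Cell Ranger count intronic reads by default, and the part of this in differences between the pairs was not tested. The reference genome at hand was of another build, so no coordinates or sequences are given.

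Cells with 200 to 5500 genes, at most 30000 UMIs and at most 10% mitochondrial UMIs were kept, the limits the study states for the surgery data. The study's integration and clustering were not repeated. The members and gene lists were chosen with earlier results of these data known. UMIs were summed per class and library, genes were filtered with filterByExpr, and edgeR 4.0.16 was run in R 4.3.3 with TMM scaling, a library term, the quasi-likelihood test and Benjamini-Hochberg adjustment over all genes tested. The library term was used because the classes of a library share mice and processing. With 4 libraries, p-values measure only the spread between these pools, of which LNR and sham may share mice. DESeq2 1.42.0 was an alternative. The test was checked on simulated counts with known changes. The exact intervals were checked on simulated Poisson counts, which cannot cover genes whose UMIs lie in few cells.

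Levels are CPM of summed counts. Shares have Clopper-Pearson, levels Poisson and ratios exact conditional 95% intervals, which treat UMIs and cells as independent. A sum of 0 was set to a floor of 3 counts for folds. Genes were named as the members of the lists with most UMIs, the 10 largest rises and falls called by edgeR in the same direction in all libraries, and the 5 largest ratios each way in a pair whose interval left out 0. A gene that this rule names is not reported here. The genes set against Lyve1 UMIs, the splits by Cldn11, Plvap, Adm and Ccl21a, and the genes Klrb1f and Nts in Lyve1-positive LECs were singled out after values were seen. Scrublet (scanpy 1.11.5) called 4.67% of SAR131675, 0.907% of control diet, 7.41% of LNR and 6.97% of sham cells, below the expected 15.9% to 23.3%, and its calls were removed only in an alternative.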

Additional observations from a re-analysis of the deposited data

Results flagged for a closer look

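In 3 of 8094 genes, the difference between Lyve1-negative and Lyve1-positive LECs itself differed between the surgery pair and the diet pair by an interaction term in edgeR, and 380 genes had an unadjusted p below 0.05. Each of the 4 libraries is a single pool, and the pairs also differ in depth and Cell Ranger version. Dcn, a fibroblast proteoglycan gene, gave an interaction of 2.06 on the log2 scale (edgeR adjusted p = 0.0017). It was at 68.9 CPM in Lyve1-negative LECs of SAR131675, 103 in control diet, 698 in LNR and 712 in sham, and at 517, 675, 1207 and 1189 CPM in Lyve1-positive LECs. In Lyve1-negative LECs it was found in 9, 11, 20 and 21 cells. Hbb-bs, an adult hemoglobin gene of red cells, gave -4.28 (edgeR adjusted p = 0.019), with 1077, 2611, 24.0 and 20.6 CPM in Lyve1-negative against 410, 2852, 447 and 159.9 CPM in Lyve1-positive LECs. Aqp1, a water channel gene of blood vessels, gave 3.23 (edgeR adjusted p = 0.032). Its UMIs in Lyve1-negative LECs came from 2 cells in SAR131675, 3 in control diet, 9 in LNR and 5 in sham, and 1 cell held 50.9% to 75.0% of them in each library. The part of fibroblast, red cell and blood vessel RNA in these 3 differences was not tested.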

How the results depend on the processing

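Against Lyve1-positive LECs, 493 genes were called. Without the library block the count was 14, at 2000 UMIs per cell with the rule applied again 141 and with no filter on low counts 862, and leaving out 1 library gave 342 to 443. Against blood endothelial cells, the 2076 calls became 916 without the block, 1313 at 2000 UMIs and 1402 to 1929 with 1 library left out. With DESeq2 the counts were 337 and 1732. Thinning leaves fewer genes to test, 2357 and 5857 against 8094 and 10969 in the main fits. The counts of these settings therefore cannot be set side by side. In the diet pair, 637 of 7264 genes compared were past 2-fold. This became 393 of 5344 without mixed-marker barcodes, 178 of 2079 at 2000 UMIs and 173 of 4145 with at least 50 UMIs. In the surgery pair, 440 of 5843 became 214 of 3208, 100 of 1021 and 90 of 2817 under the same settings. It became 253 of 3682 when all 4 markers were required. Of the 20 genes named by fold against Lyve1-positive LECs, 7 could be tested at 2000 UMIs and 12 without mixed-marker barcodes. Of the 311 values of these genes that could be recomputed over all settings, 296 kept direction and call. Of the 15 that lost the call, 14 were without the library block, where 6 of the 20 genes kept it, and the remaining 1 was Tagln when all 4 markers were required (edgeR adjusted p = 0.061). Pdpn turned from -0.53 to 0.0045 at 2000 UMIs, and the fibronectin gene Fn1 from an uncalled -0.02 to 0.80 without mixed-marker barcodes (edgeR adjusted p = 0.016). The calls of Foxc2, Angpt2, Ntn1 and Pdpn were each lost when all 4 markers were required (edgeR adjusted p = 0.056, 0.11, 0.079 and 0.15). Pdpn also lost it with DESeq2 (DESeq2 adjusted p = 0.075). The same held without Scrublet doublets and without mixed-marker barcodes (edgeR adjusted p = 0.076 and 0.072). Angpt2 lost it with at least 2 markers and without upper limits on genes and UMIs (edgeR adjusted p = 0.11 and 0.10). Ntn1 lost it without mixed-marker barcodes and at 2000 UMIs (edgeR adjusted p = 0.11 and 0.16). The log2 share ratio of the diet pair ranged from -0.42 at 2000 UMIs to 0.58 without mixed-marker barcodes, and that of the surgery pair from -0.23 with all 4 markers to 0.54, and every interval included 0. Without mixed-marker barcodes the kept cells, of which these shares are taken, were also far fewer. The causes of these changes were not tested.

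No paired analysis was possible because each condition has 1 library. LNR and sham, opposite limbs by the study's methods, form a single pair of pools, which gives no spread between pairs. The block above is the library that both cell classes come from. With 1 library per condition, the intervals of the treatment comparisons cover counting error only, and a share difference within them was not detectable.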
